A study of Mus musculus with 12 samples.

Results

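Transcripts of the synaptic vesicle cycle and release machinery were followed in the mouse forebrain at 2 ages. The 48 genes were picked by symbol, and each was found once among the 19268 genes of the normalized count table. They comprised the SNARE proteins and their regulators (Snap25, Stx1a, Vamp1, Vamp2, Cplx1, Cplx2, Nsf, Napb and Stxbp5), calcium sensors (Syt1, Syt4, Syt5, Syt7, Syt11, Doc2a and Doc2b), proteins of the active zone and of vesicle priming (Unc13a, Unc13b, Unc13c, Rims1, Rims2, Rims3, Rimbp2, Bsn, Pclo, Erc1, Erc2, Ppfia2 and Ppfia3), the Rab3 GTPases with the effector Rph3a (Rab3a, Rab3b and Rab3c), vesicle membrane proteins and synapsins (Syp, Sypl, Sv2a, Sv2b, Sv2c, Syn1, Syn2 and Syn3), vesicular glutamate transporters (Slc17a6 and Slc17a7) and endocytic proteins (Dnm1, Synj1, Amph, Sh3gl2 and Snap91). All 48 passed the minimum mean of 10 normalized counts, and none was listed at 0 in any library.

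The libraries were made from forebrain without the olfactory bulb, taken from male C57BL/6J mice either on postnatal day 25 (P25), as juveniles, or on postnatal day 60 (P60), as adults. Mice were either wild-type (WT) or homozygous for a germline deletion of internal exons of Shank3, a scaffold gene of the excitatory postsynapse (KO). There were 3 libraries, each stated to be 1 mouse, in each of the groups P25-WT, P25-KO, P60-WT and P60-KO, so p-values measure the spread between these few animals. Normalized counts are the authors' read estimates scaled between libraries. Differences are given as log2 fold changes of the normalized count plus 1, with their standard error (SE) and a p-value from limma adjusted over all genes tested, and a gene was called when that adjusted p was under 0.05.

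A nerve terminal releases transmitter when a vesicle that has been tethered, docked and primed at the active zone fuses with the plasma membrane. Fusion is driven by a SNARE complex of synaptobrevin on the vesicle with syntaxin and SNAP-25 on the plasma membrane, is triggered by calcium through synaptotagmins, and is held ready by complexins, Munc13 and RIM proteins. Used membrane is then retrieved by clathrin, dynamin and their partners, and the vesicle is refilled by transporters, of which Slc17a7 (VGLUT1) prevails in cortex and hippocampus and Slc17a6 (VGLUT2) in thalamus. Most of these proteins belong to small families of paralogs, and the forebrain of the mouse is still refining its synapses between these ages.

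Promoters of 39 of the 48 genes were found in the RefSeq table (mouse assembly GRCm38.p6), each running from 250 bases before to 50 bases after the annotated start. The windows of 6 genes are printed because their transcripts carried the age differences described here: Stx1a, Syp and Slc17a7 were lower at P60, Unc13c was higher, and Rims1 and Rims3 are paralogs that moved apart. Capitals mark the GC box GGGCGG, the core TGACG of the cyclic-AMP response element and the motif of NRF1, each searched on both strands. The windows lie at chr5:135023232-135023531 on the plus strand (Stx1a), chrX:7638330-7638629 on the plus strand (Syp), chr7:45163671-45163970 on the plus strand (Slc17a7), chr9:73968988-73969287 on the minus strand (Unc13c), chr1:22806109-22806408 on the minus strand (Rims1) and chr4:120854549-120854848 on the plus strand (Rims3), and all are written 5′ to 3′ on the gene's own strand.
Stx1a: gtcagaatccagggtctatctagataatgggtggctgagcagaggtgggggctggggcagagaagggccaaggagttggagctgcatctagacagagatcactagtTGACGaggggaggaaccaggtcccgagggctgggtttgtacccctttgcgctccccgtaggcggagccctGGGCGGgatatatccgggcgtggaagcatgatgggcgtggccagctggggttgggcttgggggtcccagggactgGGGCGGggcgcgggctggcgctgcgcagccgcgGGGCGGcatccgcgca
Syp: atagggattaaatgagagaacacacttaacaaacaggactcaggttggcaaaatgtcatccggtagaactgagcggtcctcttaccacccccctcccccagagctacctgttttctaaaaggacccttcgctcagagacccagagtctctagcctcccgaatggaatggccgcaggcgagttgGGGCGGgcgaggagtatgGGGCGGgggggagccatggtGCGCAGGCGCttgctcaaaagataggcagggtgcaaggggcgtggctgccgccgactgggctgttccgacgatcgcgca
Slc17a7: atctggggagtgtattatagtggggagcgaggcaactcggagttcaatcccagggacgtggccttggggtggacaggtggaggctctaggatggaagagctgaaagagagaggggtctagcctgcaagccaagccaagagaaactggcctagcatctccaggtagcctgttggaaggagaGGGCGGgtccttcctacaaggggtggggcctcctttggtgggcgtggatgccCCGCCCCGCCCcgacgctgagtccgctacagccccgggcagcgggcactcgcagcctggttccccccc
Unc13c: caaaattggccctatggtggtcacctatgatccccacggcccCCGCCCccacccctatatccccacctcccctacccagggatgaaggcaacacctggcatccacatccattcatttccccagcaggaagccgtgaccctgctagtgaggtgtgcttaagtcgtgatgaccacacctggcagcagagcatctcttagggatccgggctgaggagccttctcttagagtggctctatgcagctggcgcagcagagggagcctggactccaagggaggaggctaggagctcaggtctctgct
Rims1: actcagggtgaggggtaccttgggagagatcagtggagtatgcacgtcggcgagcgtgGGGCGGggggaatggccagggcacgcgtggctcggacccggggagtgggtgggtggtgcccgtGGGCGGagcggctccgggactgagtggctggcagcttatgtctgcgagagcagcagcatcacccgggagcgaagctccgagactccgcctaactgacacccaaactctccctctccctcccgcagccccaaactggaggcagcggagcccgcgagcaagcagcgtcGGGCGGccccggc
Rims3: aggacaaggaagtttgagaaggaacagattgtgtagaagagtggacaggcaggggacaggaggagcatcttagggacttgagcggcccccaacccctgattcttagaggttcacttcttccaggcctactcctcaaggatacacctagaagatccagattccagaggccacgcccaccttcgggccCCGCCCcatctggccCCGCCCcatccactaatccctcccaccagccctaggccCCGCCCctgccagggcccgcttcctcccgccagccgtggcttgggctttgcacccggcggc

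The printed windows were rich in GC boxes in both directions of change. Stx1a, Slc17a7, Rims1 and Rims3 each held 3, Syp held 2 and Unc13c held 1. Over all 39 windows, 30 held at least 1 GC box (76.9%), against 35.7% of the 32851 promoters in the table. The box was found in 8 of 10 promoters of genes called higher at P60, 11 of 12 called lower and 11 of 17 not called. Median GC content was 61.7%, 63.0% and 62.7% in those classes, against 52.7% over all promoters. The TGACG core was in 9 of 39 windows (23.1%, against 20.8% of all). By class it was in 1 of 10 promoters of genes called higher, 5 of 12 called lower and 3 of 17 not called. The palindrome TGACGTCA, which contains that core, was in 2 windows (5.13%, against 1.79%), those of Syn1 and Sh3gl2. The NRF1 motif was in 6 (15.4%, against 4.6%), the TATA motif TATAAA was in 2 (5.13%, against 13.6%), and the core of the neuronal repressor element RE1 was in none (0.0365% of all promoters). The 39 windows are 1 per gene, whereas the 32851 promoters outnumber the 19268 genes of the normalized count table. That background was therefore not limited to 1 window for each of those genes. It was also not matched to the 39 in expression or GC content. Whether the differences from it in GC box, GC content, NRF1 and TATA are particular to the release machinery was not tested. All motif counts are matches of letters in short windows, and no binding was measured.

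Shank3 itself was at 48.0% of the WT mean in KO libraries at P25 and at 50.2% at P60, with every KO library below every WT library of its age. The table totals lay between 30568259 and 32348554 normalized counts per library, and the 48 genes made up from 2.0% to 2.19% of each total. P25-WT replicate 2 stood apart: it was the lowest of the 6 P25 libraries for 24 of the 48 genes and the highest for 10. Markers of cerebellum, which lies outside the forebrain, were high in P60-WT replicate 2 and, less so, in P60-KO replicate 1. The summed level of Cbln3, Gabra6, Pcp2 and Fat2 was 1584 and 454 normalized counts in these, against 23 to 101 in the other 10 libraries. With Zic2, which every library held, the sums were 2175 and 982 against 477 to 623. For the comparison of ages over both genotypes, calls that changed without these 3 libraries are named with the counts. In bulk tissue, fewer cells of a type and less RNA per cell cannot be told apart.

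The comparison of P60 with P25 asked how the release machinery differs between juvenile and adult forebrain. With genotype as a covariate over all 12 libraries, 13 genes were higher at P60 and 15 were lower, so that 28 of 48 (58.3%) were called. Over all 17594 genes tested, 37.6% were called (18.3% higher and 19.3% lower), and among the 9527 genes whose mean was at least that of the lowest of the 48 (412 normalized counts for Syn3) the share was 47.8%. Syn3 alone set that floor, and the lowest group mean of any other gene of the 48 was 1075 (Doc2a in P60-KO). The 9527 genes are therefore not matched in level to the 48. The median log2 fold change of the 48 was -0.03, against 0.00 over all genes, and the median absolute change was 0.16 against 0.19. The age classes did not overlap for 15 of the 48 (5 higher and 10 lower), against 19.6% of all genes (8.79% higher and 10.8% lower). The direction of the calls moved with the scaling: with every library set to the same total, 17 were higher and 13 lower, with Syt1, Syt7, Nsf and Stxbp5 then called higher and the calls of Sv2a and Syt5 lost, and over all genes 4036 were higher and 2730 lower in place of 3219 and 3397. Without P25-WT replicate 2, all 28 were still called in the same direction and Bsn, Cplx2, Erc1 and Rph3a were called lower as well (32 in all, against 38.3% of all genes). Without P60-WT replicate 2 and P60-KO replicate 1, 25 of the 28 were called (all genes, 31.8%) and the calls of Vamp1, Pclo and Syt5 were lost.

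**Figure D1:**
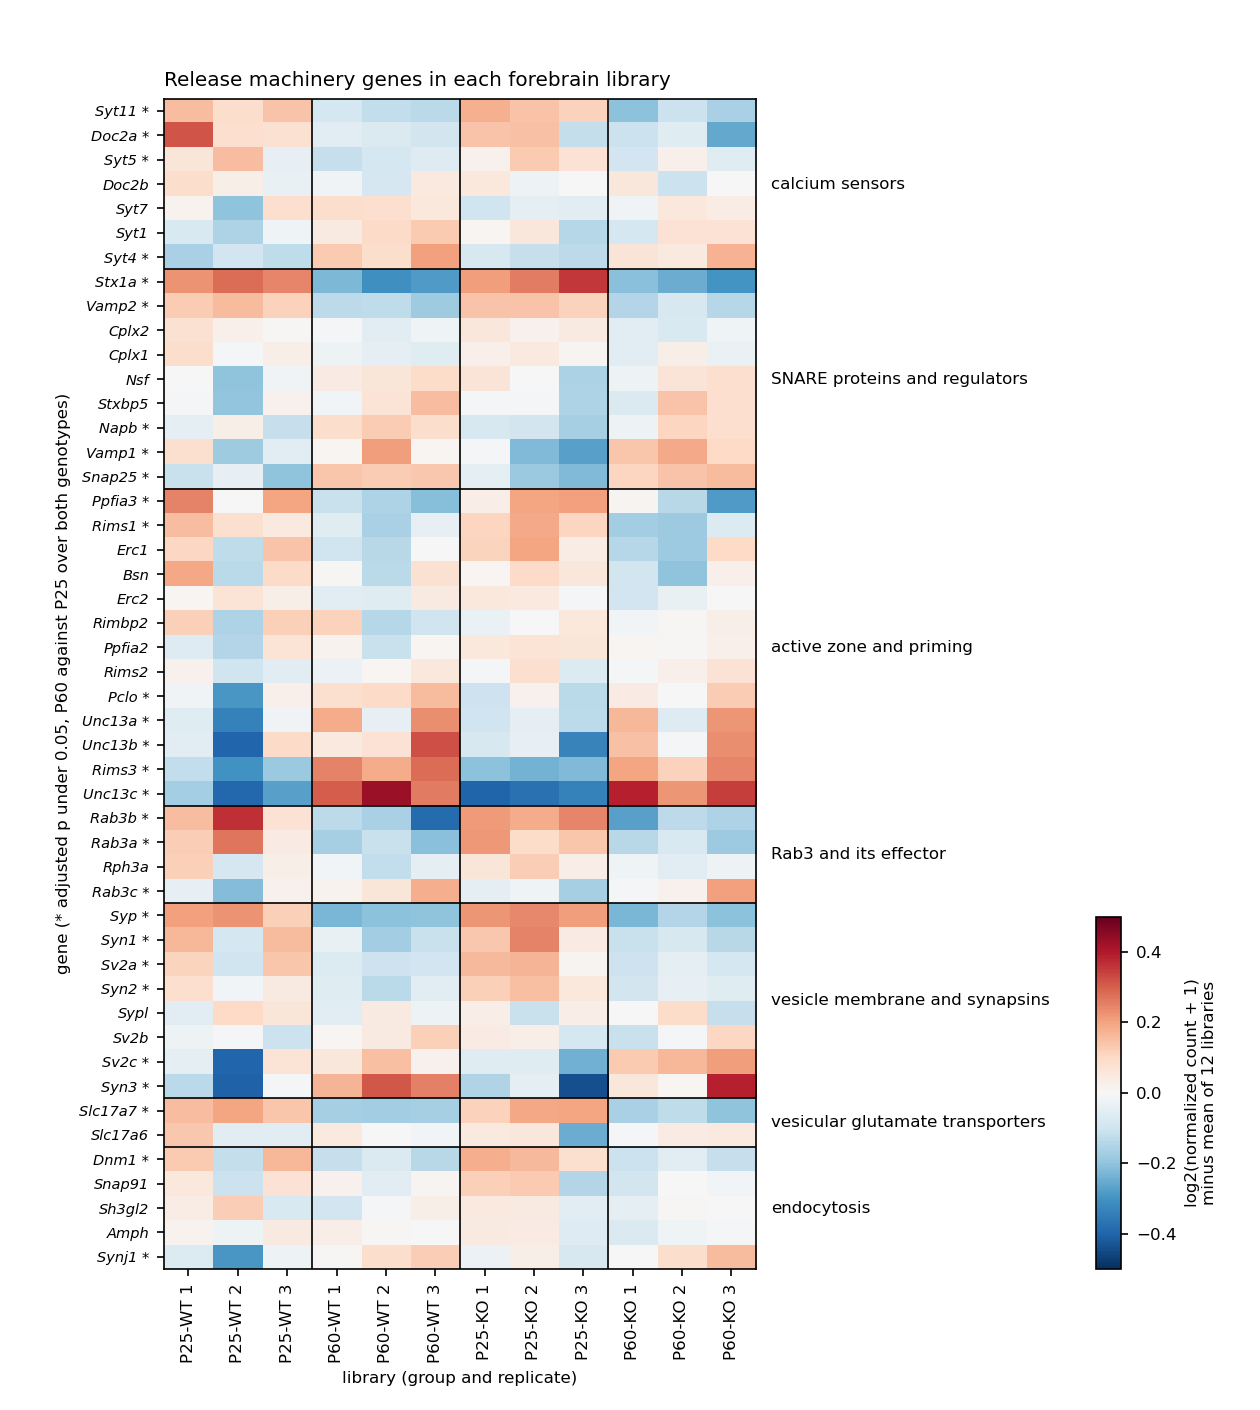
Level of each of the 48 genes in each of the 12 libraries, as log2(normalized count + 1) minus the gene's mean over the libraries (colour), with genes in rows by role and libraries in columns by group. Stx1a, Syp and Vamp2 turn from red at P25 to blue at P60 in both genotypes, and Unc13c and Rims3 turn the other way. Asterisks mark the 28 called genes.

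Among the 9 SNARE proteins and regulators, Snap25, Vamp1 and Napb were higher at P60 and Stx1a and Vamp2 were lower. The 3 SNAREs that form the core fusion complex thus included 1 that rose and 2 that fell. Stx1a (ENSMUSG00000007207, GRCm38 chromosome 5, 135023482 to 135051100), the plasma membrane syntaxin, had the smallest p of the 48. Its normalized counts were 7942, 8245 and 8039 in P25-WT, 7852, 8114 and 8693 in P25-KO, 5820, 5501 and 5582 in P60-WT and 5885, 5723 and 5526 in P60-KO. Every P60 library was below every P25 library. The log2 fold change was -0.52 ± 0.04 (SE, adjusted p = 2.3e-07), a level that fell by 30.4%.

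Vamp2 (ENSMUSG00000020894, chromosome 11, 69088490 to 69092384), the main synaptobrevin of forebrain vesicles, was also lower at P60. The libraries held 29518, 30156 and 29310 in P25-WT, 29880, 29810 and 29241 in P25-KO, 24679, 24770 and 23923 in P60-WT and 24432, 25602 and 24495 in P60-KO. The ages did not overlap, and the log2 fold change was -0.27 ± 0.03 (SE, adjusted p = 1.75e-05). Its paralog Vamp1, which is more abundant in brainstem and spinal cord, was the opposite. Vamp1 had 7502, 6271 and 6854 in P25-WT, 7045, 6099 and 5876 in P25-KO, 7142, 8203 and 7156 in P60-WT and 7826, 8096 and 7603 in P60-KO. The ages overlapped for Vamp1 because P25-WT replicate 1 lay above some P60 libraries, and the log2 fold change was 0.22 ± 0.06 (SE, adjusted p = 0.0121). Without P60-WT replicate 2 and P60-KO replicate 1 it was 0.19 (adjusted p = 0.0654) and the call was lost. The hindbrain marker Slc6a5 was at 266, 64.7 and 240 normalized counts in P25-WT, 219, 46.0 and 29.9 in P25-KO, 196, 557 and 104 in P60-WT and 494, 404 and 159 in P60-KO. The 3 P60 libraries highest in Slc6a5 were also the 3 highest in Vamp1, and at P25 Slc6a5 and Vamp1 were both highest in replicate 1 of each group. The part of hindbrain tissue in the Vamp1 result was not tested. The call for Vamp1 was also lost after a trend of the values on the length and GC content of transcripts was taken out of every library.

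Snap25 (ENSMUSG00000027273, chromosome 2, 136713453 to 136782428), the palmitoylated SNARE of the plasma membrane, had the highest normalized count of the 48. Normalized counts were 58066, 61008 and 54574 in P25-WT, 60641, 55235 and 53900 in P25-KO, 69116, 68543 and 68906 in P60-WT and 67620, 69267 and 69989 in P60-KO. All 6 P60 libraries were above all 6 P25 libraries, and the log2 fold change was 0.27 ± 0.04 (SE, adjusted p = 0.000115). With the trend on length and GC content removed, it was 0.08 (adjusted p = 0.119) and the call was lost. Napb encodes beta-SNAP, the brain-enriched adaptor that brings the ATPase NSF to used SNARE complexes. Its levels were 15532, 16387 and 14831 in P25-WT, 15199, 15062 and 14303 in P25-KO, 17039, 17511 and 17039 in P60-WT and 15783, 17275 and 16991 in P60-KO. The ages overlapped, with P25-WT replicate 2 highest of the P25 libraries, and the log2 fold change was 0.15 ± 0.04 (SE, adjusted p = 0.0047). That call too was lost with the length and GC trend removed (0.04, adjusted p = 0.475). Nsf, which pulls SNARE complexes apart, had a log2 fold change of 0.11 ± 0.05 (SE, adjusted p = 0.084), and Stxbp5 (tomosyn, an inhibitor of SNARE assembly) one of 0.12 ± 0.05 (SE, adjusted p = 0.0915). Neither was called, but with every library set to the same total both were called higher, at 0.15 (adjusted p = 0.0258) and 0.16 (adjusted p = 0.0321). The complexins Cplx1 and Cplx2, which clamp and then promote fusion, were -0.06 ± 0.03 (SE, adjusted p = 0.129), and -0.07 ± 0.03 (SE, adjusted p = 0.0602), and neither was called. The age classes of Cplx2 did not overlap even so.

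Of the 7 calcium sensors, Syt4 was higher at P60 and Syt11, Doc2a and Syt5 were lower. Syt1, the fast sensor of synchronous release, was not called, at 0.11 ± 0.05 (SE, adjusted p = 0.0802), and neither was Syt7, the slow sensor, at 0.10 ± 0.04 (SE, adjusted p = 0.0899). With every library set to the same total, Syt1 was 0.15 (adjusted p = 0.0256) and Syt7 0.14 (adjusted p = 0.0284), and both were called higher. Syt4 and Syt11 form a subfamily whose first C2 domain lacks a calcium-binding residue, and they moved in opposite directions. Syt4 was at 4720, 4934 and 4827 in P25-WT, 4986, 4869 and 4820 in P25-KO, 5784, 5614 and 6088 in P60-WT and 5515, 5457 and 5955 in P60-KO. All P60 libraries exceeded all P25 libraries, with a log2 fold change of 0.24 ± 0.04 (SE, adjusted p = 0.000285), which was 0.11 (adjusted p = 0.0239) with the length and GC trend removed. Syt11 was at 29102, 27778 and 28899 in P25-WT, 29576, 28919 and 28310 in P25-KO, 24646, 24036 and 23851 in P60-WT and 22708, 24311 and 23393 in P60-KO. Here all P60 libraries lay below all P25 libraries, and the log2 fold change was -0.27 ± 0.03 (SE, adjusted p = 3.05e-05). Of the 31-base words of Syt11 transcripts, 7.23% also occur in transcripts of other genes, the largest such share among the 48 genes. The gene sharing the most of these words was 1500004A13Rik. Doc2a and Doc2b, high-affinity sensors linked to spontaneous and asynchronous release, were -0.21 ± 0.06 (SE, adjusted p = 0.0143), and -0.04 ± 0.05 (SE, adjusted p = 0.571). For Syt5 the log2 fold change was -0.13 ± 0.04 (SE, adjusted p = 0.0227), and the calls of Doc2a and Syt5 were lost with the length and GC trend removed, where Syt5 changed sign. The Syt5 call was also lost with every library set to the same total (-0.09, adjusted p = 0.0995).

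The 13 proteins of the active zone and of priming held the largest rise. Unc13a, Unc13b, Unc13c, Rims3 and Pclo were higher at P60, Rims1 and Ppfia3 were lower, and Rims2, Rimbp2, Bsn, Erc1, Erc2 and Ppfia2 were not called. Unc13c (ENSMUSG00000062151, chromosome 9, 73479422 to 73968966) encodes Munc13-3, a priming factor best known from the cerebellum. Its normalized counts were 1926, 1654 and 1795 in P25-WT, 1642, 1674 and 1714 in P25-KO, 2675, 2930 and 2598 in P60-WT and 2838, 2528 and 2757 in P60-KO. The lowest P60 library was well above the highest P25 library, and the log2 fold change was 0.65 ± 0.05 (SE, adjusted p = 6.28e-07), a level 56.9% higher. In P60-WT replicate 2 and P60-KO replicate 1, where the cerebellar markers were high, Unc13c was the highest of its group. Without both libraries the log2 fold change was 0.61 (adjusted p = 2.46e-05).

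Unc13a, the main priming factor of forebrain glutamatergic terminals, and Unc13b, its ubiquitous relative, had log2 fold changes of 0.23 ± 0.07 (SE, adjusted p = 0.0122), and 0.27 ± 0.08 (SE, adjusted p = 0.0189). Their ages overlapped, and P25-WT replicate 2 was the lowest library for both, at 12419 and 1523 normalized counts. Without it the log2 fold changes were 0.19 (adjusted p = 0.016) for Unc13a and 0.21 (adjusted p = 0.0286) for Unc13b. Rims3 (ENSMUSG00000032890, chromosome 4, 120854816 to 120896579) encodes a short RIM that keeps only the C-terminal C2 domain of the long forms. Rims3 was at 6780, 5978 and 6479 in P25-WT, 6397, 6261 and 6337 in P25-KO, 8766, 8377 and 8956 in P60-WT and 8464, 7982 and 8742 in P60-KO. The long form Rims1, which binds Rab3, Munc13 and calcium channels, went the other way. For Rims1 the libraries held 8366, 7946 and 7780 in P25-WT, 8106, 8573 and 8102 in P25-KO, 7218, 6727 and 7319 in P60-WT and 6676, 6633 and 7185 in P60-KO. Neither gene's ages overlapped, with log2 fold changes of 0.42 ± 0.04 (SE, adjusted p = 3.87e-06), for Rims3 and -0.23 ± 0.04 (SE, adjusted p = 0.00061), for Rims1. Rims2, the other long form, was 0.04 ± 0.04 (SE, adjusted p = 0.446).

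The giant scaffolds Bsn and Pclo, which organise the cytomatrix of the active zone, had log2 fold changes of -0.11 ± 0.06 (SE, adjusted p = 0.164), and 0.17 ± 0.05 (SE, adjusted p = 0.0227). The liprins Ppfia2 and Ppfia3, scaffolds that assemble presynaptic sites, were -0.01 ± 0.04 (SE, adjusted p = 0.828), and -0.29 ± 0.06 (SE, adjusted p = 0.00113). The ELKS proteins Erc1 and Erc2 were -0.15 ± 0.06 (SE, adjusted p = 0.0613), and -0.07 ± 0.04 (SE, adjusted p = 0.163), and Rimbp2, which ties RIM to calcium channels, was -0.03 ± 0.06 (SE, adjusted p = 0.664). The calls of Unc13b and Pclo were lost with the length and GC trend removed, where Pclo changed sign and Ppfia3 was -0.19 (adjusted p = 0.00453), while Erc1, Erc2 and Ppfia2 were then called.

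Within the Rab3 group, Rab3a and Rab3b were lower at P60 and Rab3c was higher. Rab3 GTPases ride on vesicles and bind RIM and rabphilin when loaded with GTP. Rab3a, the main form in brain, was at 18315, 20221 and 17285 in P25-WT, 19533, 17907 and 18505 in P25-KO, 14974, 15563 and 14525 in P60-WT and 15253, 15925 and 14805 in P60-KO. The rarer Rab3b was at 1700, 1969 and 1604 in P25-WT, 1771, 1735 and 1811 in P25-KO, 1393, 1365 and 1169 in P60-WT and 1266, 1395 and 1373 in P60-KO. Neither overlapped between ages, and the log2 fold changes were -0.29 ± 0.04 (SE, adjusted p = 0.000133), and -0.41 ± 0.06 (SE, adjusted p = 0.00014). Rab3a was -0.16 (adjusted p = 0.00304) with the length and GC trend removed. Rab3c was at 15787, 13969 and 16469 in P25-WT, 15694, 16009 and 14467 in P25-KO, 16427, 16951 and 18402 in P60-WT and 16137, 16504 and 18740 in P60-KO. The Rab3c ages overlapped, its log2 fold change was 0.16 ± 0.05 (SE, adjusted p = 0.0257), and its call was lost with a change of sign once the length and GC trend was removed. The effector Rph3a was not called, at -0.09 ± 0.04 (SE, adjusted p = 0.0723).

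Of the 8 vesicle membrane proteins and synapsins, Syp, Syn1, Syn2 and Sv2a were lower at P60, Syn3 and Sv2c were higher, and Sv2b and Sypl were not called. Syp (ENSMUSG00000031144, chromosome X, 7638471 to 7653256) encodes synaptophysin, an abundant vesicle protein that sorts synaptobrevin. Its normalized counts were 42108, 42743 and 39744 in P25-WT, 42591, 43190 and 42299 in P25-KO, 31193, 31723 and 31814 in P60-WT and 31235, 33002 and 31735 in P60-KO. The ages were far apart, and the log2 fold change was -0.41 ± 0.03 (SE, adjusted p = 5.8e-07), a level that fell by 24.5%. Sypl, the synaptophysin-like protein of many tissues, was -0.02 ± 0.05 (SE, adjusted p = 0.798).

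Synapsins coat vesicles and hold them in the reserve pool. Syn1 was at 22234, 18647 and 22127 in P25-WT, 21759, 23566 and 20376 in P25-KO, 19305, 17565 and 18349 in P60-WT and 18338, 18773 and 18001 in P60-KO. P25-WT replicate 2 lay among the P60 libraries, and the log2 fold change was -0.22 ± 0.05 (SE, adjusted p = 0.00377) with it and -0.26 (adjusted p = 0.000122) without it. Syn2 was at 16140, 15096 and 15722 in P25-WT, 16536, 16904 and 15806 in P25-KO, 14602, 13878 and 14699 in P60-WT and 14291, 14792 and 14594 in P60-KO. Its ages did not overlap, and the log2 fold change was -0.15 ± 0.03 (SE, adjusted p = 0.00402). Syn3, the least abundant synapsin, had the lowest normalized count of the 48. Its normalized counts were 370, 307 and 403 in P25-WT, 366, 393 and 299 in P25-KO, 457, 504 and 484 in P60-WT and 423, 409 and 532 in P60-KO. The ages did not overlap for Syn3, although P60-KO replicate 2 was only slightly above P25-WT replicate 3, and the log2 fold change was 0.40 ± 0.09 (SE, adjusted p = 0.00407). The SV2 glycoproteins, which regulate the readiness of vesicles, had log2 fold changes of -0.17 ± 0.04 (SE, adjusted p = 0.00937), for Sv2a, 0.05 ± 0.04 (SE, adjusted p = 0.389), for Sv2b and 0.25 ± 0.07 (SE, adjusted p = 0.0113), for Sv2c. The calls of Syn1 and Sv2a were lost with the length and GC trend removed, and that of Sv2a also with every library set to the same total (-0.12, adjusted p = 0.0541). Without the length and GC trend, the differences of Syn3 and Sv2c were 0.24 and 0.15.

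Slc17a7 was lower at P60 and Slc17a6 was not called. Slc17a7 was at 38040, 39257 and 37660 in P25-WT, 37062, 39140 and 39215 in P25-KO, 30531, 30367 and 30509 in P60-WT and 30619, 31303 and 29802 in P60-KO. No P60 library reached the lowest P25 library, and the log2 fold change was -0.33 ± 0.03 (SE, adjusted p = 3.44e-06), a level that fell by 20.5%. With the length and GC trend removed, the log2 fold change was -0.21 (adjusted p = 0.000208). For Slc17a6 it was 0.04 ± 0.06 (SE, adjusted p = 0.619), with P25-KO replicate 3 the lowest library, at 2337 normalized counts.

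Of the 5 endocytic genes, Synj1 (a lipid phosphatase that uncoats vesicles) was higher and Dnm1 (the GTPase that cuts them from the membrane) was lower, at 0.15 ± 0.05 (SE, adjusted p = 0.023), and -0.20 ± 0.05 (SE, adjusted p = 0.00405). Amph, Sh3gl2 (endophilin A1) and Snap91 (the clathrin adaptor AP180) were -0.02 ± 0.04 (SE, adjusted p = 0.687), -0.04 ± 0.04 (SE, adjusted p = 0.472), and -0.04 ± 0.05 (SE, adjusted p = 0.558), and were not called. Both calls were lost with the length and GC trend removed, and the ages of all 5 overlapped.

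Within WT mice, 12 of the 48 genes (25%) were called between the ages, 4 higher and 8 lower, against 8.65% of the 17581 genes tested (3.66% higher and 4.99% lower). Within KO mice the count was 20 (41.7%), 7 higher and 13 lower, against 20.7% of 17596 genes (9.37% higher and 11.3% lower). In genes at or above the lowest of the 48 in level, the shares called were 12.3% in WT and 28.6% in KO. These 2 comparisons share no library. All 12 genes called in WT (Stx1a, Rab3b, Syp, Slc17a7, Ppfia3, Rab3a, Vamp2, Syt11, Snap25, Syt4, Rims3 and Unc13c) were called in KO in the same direction, and the 8 further genes called in KO were Rims1, Syn1, Dnm1, Sv2a and Syn2, lower at P60, and Napb, Sv2c and Vamp1, higher. The hindbrain marker Slc6a5 was also called higher at P60 in KO, at 2.22 ± 0.64 (SE, adjusted p = 0.0342), and not in WT, at 0.48 ± 0.64 (SE, adjusted p = 0.653). Its ages overlapped in both genotypes, and the interaction with genotype was not called, at 1.73 ± 1.07 (SE, adjusted p = 1). The part of hindbrain tissue in the KO call of Vamp1 was not tested. The ages did not overlap for 25 of the 48 in WT (all genes, 36.0%) and for 27 in KO (all genes, 39.4%). With every library set to the same total, 4 were higher and 4 lower in WT (all genes, 9.51% called, 991 higher and 681 lower), and 9 higher and 10 lower in KO (all genes, 21.2%, 2110 higher and 1620 lower). The WT count rested on single libraries, as did the share of all genes: it was 3 without P25-WT replicate 1 (all genes, 1.36%), 2 without P60-WT replicate 1 (1.31%), 4 without P60-WT replicate 2 (2.14%) and 2 without P60-WT replicate 3 (0.693%). Without P25-WT replicate 2 it was 16 (all genes, 13.7%).

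The age changes measured in the 2 genotypes lay close together. In WT and KO, Stx1a was at -0.52 ± 0.06 and -0.52 ± 0.06 (SE), Syp at -0.40 ± 0.06 and -0.42 ± 0.04, Slc17a7 at -0.33 ± 0.06 and -0.33 ± 0.05, Rims3 at 0.44 ± 0.07 and 0.41 ± 0.05, and Unc13c at 0.61 ± 0.09 and 0.69 ± 0.06. The sign was the same for 43 of 48 genes, and across genes the changes had a Pearson correlation of 0.968, a description over genes that are not independent. The widest gap between the genotypes was that of Vamp1, at 0.13 ± 0.09 in WT and 0.31 ± 0.07 in KO, and the difference itself did not pass the test. No gene of the 48 was called for a genotype by age interaction (0.0% of all genes were called; at an unadjusted p under 0.05, 0 of 48 and 1.64% of all genes).

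**Figure D2:**
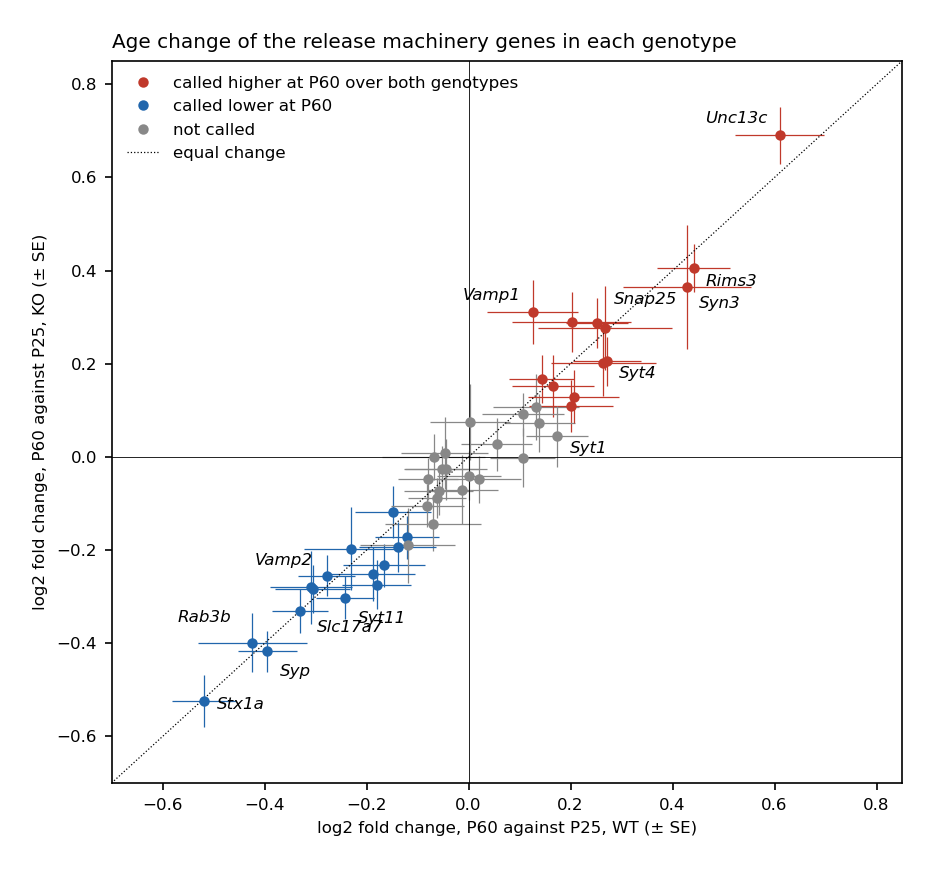
Log2 fold change between P60 and P25 in WT (horizontal) and in KO mice (vertical) for the 48 genes, with SE bars; colour gives the call over both genotypes and the dotted line marks equal change. The genes lie along the line, from Stx1a at -0.52 in both to Unc13c at 0.61 in WT and 0.69 in KO.

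Ratios of paralogs in the same library do not depend on how libraries were scaled. Of 24 pairs, 14 had ratios that did not overlap between the 6 P25 and 6 P60 libraries, and these 14 reached the smallest p that the two-sided exact permutation test of age within genotype allows (0.005, from 400 arrangements). How often the ratios of other gene pairs separate the ages was not tested, and the p-values of the 24 pairs are not adjusted for their number. In all, 19 of 24 pairs had a p under 0.05, and the sign was the same in WT and KO for 23. The largest shift was that of Rims1 to Rims3, whose ratio fell from 1.28 at P25 to 0.814 at P60, a log2 difference of -0.65 (exact permutation p = 0.005). By library the ratio was 1.23, 1.33 and 1.20 in P25-WT, 1.27, 1.37 and 1.28 in P25-KO, 0.823, 0.803 and 0.817 in P60-WT and 0.789, 0.831 and 0.822 in P60-KO. Rims1 was thus the higher of the pair in every P25 library and the lower in every P60 library, in normalized counts.

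Syn3 gained on both other synapsins. The ratio of Syn1 to Syn3 was 59.9, 60.6 and 54.8 in P25-WT, 59.4, 59.8 and 68.0 in P25-KO, 42.2, 34.8 and 37.8 in P60-WT and 43.3, 45.8 and 33.8 in P60-KO. Its geometric mean went from 60.3 to 39.4, a log2 difference of -0.62 (exact permutation p = 0.005), which was -0.31 with the length and GC trend removed. For Syn2 to Syn3 the ratios were 43.5, 49.1 and 38.9 in P25-WT, 45.1, 42.9 and 52.7 in P25-KO, 31.9, 27.5 and 30.3 in P60-WT and 33.7, 36.1 and 27.4 in P60-KO. They went from 45.2 to 31, a log2 difference of -0.54 (exact permutation p = 0.005), which was -0.39 with the length and GC trend removed. The ratio of Syn1 to Syn2 differed by -0.07 (exact permutation p = 0.07).

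Rab3c gained on Rab3b and Rab3a. The ratio of Rab3b to Rab3c was 0.108, 0.141 and 0.0974 in P25-WT, 0.113, 0.108 and 0.125 in P25-KO, 0.0848, 0.0806 and 0.0636 in P60-WT and 0.0785, 0.0846 and 0.0733 in P60-KO. The geometric means were 0.115 and 0.0772, a log2 difference of -0.57 (exact permutation p = 0.005), which was -0.38 with the length and GC trend removed. Rab3a to Rab3c fell from 1.21 to 0.884, a log2 difference of -0.45 (exact permutation p = 0.005), which was -0.12 with the length and GC trend removed. Among the other pairs whose ages did not overlap, Syt4 to Syt11 rose from 0.169 to 0.241 and Vamp1 to Vamp2 from 0.222 to 0.311, while Slc17a7 to Slc17a6 fell from 14.0 to 10.9, Unc13a to Unc13c from 8.35 to 6.25, Sv2a to Sv2c from 7.98 to 6.00 and Syp to Sypl from 37.3 to 28.6. The log2 differences of all these pairs were smaller with the length and GC trend removed, as given below. Rims1 to Rims2 fell from 2.42 to 2.01, Rims2 to Rims3 from 0.529 to 0.406 and Bsn to Pclo from 2.16 to 1.79, a log2 difference of -0.27 that was -0.02 with the length and GC trend removed. Some ratios did not separate the ages. Cplx1 to Cplx2 was 0.574 at P25 and 0.579 at P60 (exact permutation p = 0.695), Unc13a to Unc13b was 7.93 and 7.72 (exact permutation p = 0.505), and Erc1 to Erc2 was 0.472 and 0.444 (exact permutation p = 0.185).

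**Figure D3:**
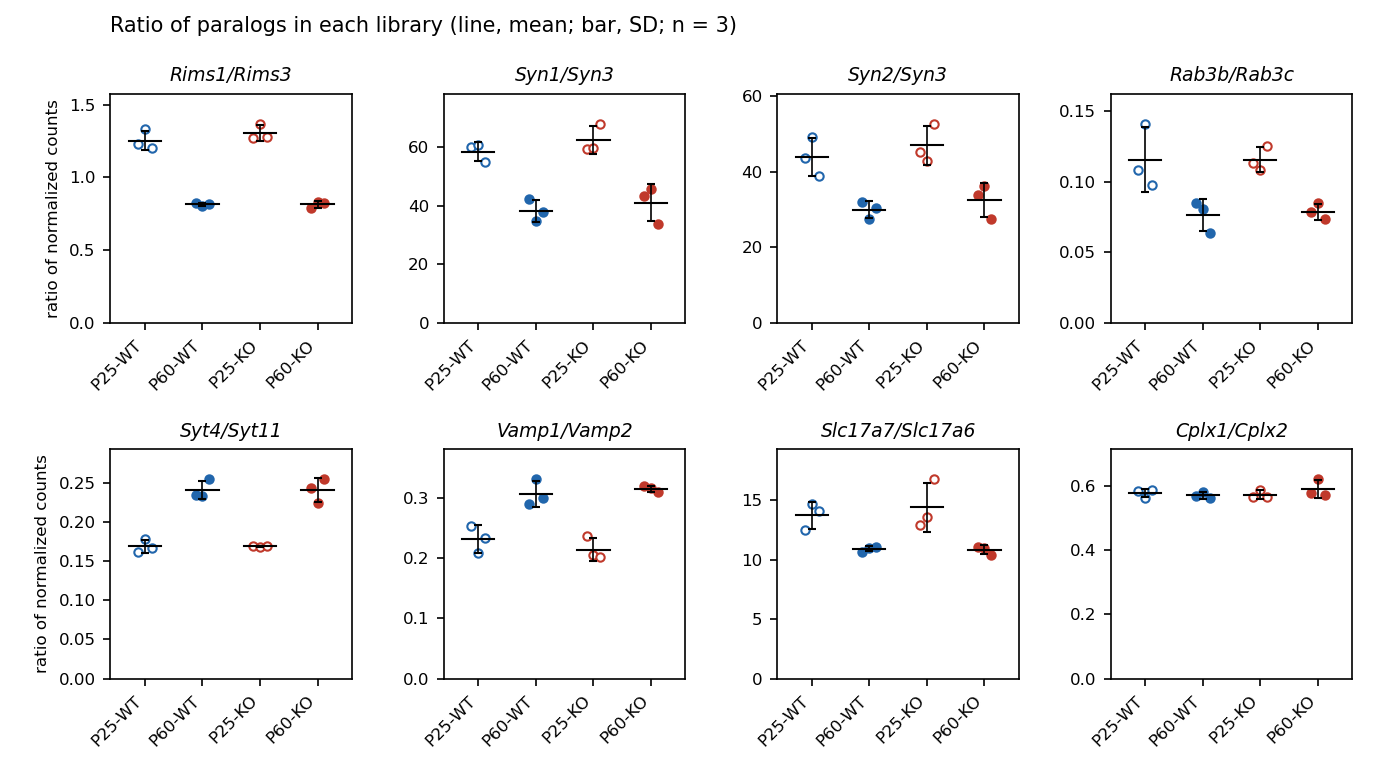
Ratio of normalized counts of 8 paralog pairs in each library, by group, from 0 on a linear axis (points, libraries; line, mean; bar, SD; open points, P25; filled points, P60; blue, WT; red, KO). In 7 panels the P25 and P60 points do not overlap, and Cplx1/Cplx2 lies between 0.560 and 0.620 in all 12 libraries.

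The direction of change went with the length and base composition of the transcripts, as it did over all genes. Merged exons had a median length of 9700 bases in the 13 genes higher at P60 and of 4636 bases in the 15 that were lower, and the median GC content of the longest transcript was 45.4% and 55%. Over all genes tested these were 6004 and 3360 bases, and 45.7% and 54.0%. Among the 48, Rims3 (55.5% GC, higher) and Syp (45.4% GC, lower) were on the far side of this pattern, as was Unc13a (55.1% GC, higher). Rims1 (47.4% GC), Rab3b (49.3%) and Syt11 (49.9%), all called lower, also lay nearer the median GC content of the genes called higher. When each library's trend on both properties was removed, 23 of the 48 were called, 7 higher and 16 lower (all genes, 33.5%), of which 16 were among the 28: Stx1a, Syp, Slc17a7, Vamp2, Syt11, Rab3a, Rab3b, Rims1, Ppfia3 and Syn2 were still called lower, and Unc13c, Rims3, Syn3, Syt4, Sv2c and Unc13a higher. Of these 16, the log2 fold changes of 6 shrank by over 1.5 times: Syt4 from 0.24 to 0.11, Syn3 from 0.40 to 0.24, Sv2c from 0.25 to 0.15, Rab3a from -0.29 to -0.16, Slc17a7 from -0.33 to -0.21 and Ppfia3 from -0.29 to -0.19. The other 12 calls were lost, and 7 genes (Syt7, Snap91, Erc1, Erc2, Ppfia2, Sh3gl2 and Sypl) were called that had not been. Most paralog ratios whose ages did not overlap became smaller, although none of the 14 changed sign. The log2 difference went from -0.27 to -0.02 for Bsn to Pclo, from -0.45 to -0.12 for Rab3a to Rab3c, from -0.37 to -0.14 for Slc17a7 to Slc17a6, from -0.62 to -0.31 for Syn1 to Syn3, from -0.41 to -0.23 for Sv2a to Sv2c, from 0.48 to 0.30 for Vamp1 to Vamp2 and from -0.57 to -0.38 for Rab3b to Rab3c. For Unc13a to Unc13c it went from -0.42 to -0.27, and for Syn2 to Syn3 from -0.54 to -0.39. Syt4 to Syt11 went from 0.51 to 0.38, Syp to Sypl from -0.39 to -0.26 and Rims1 to Rims2 from -0.27 to -0.26. Rims1 to Rims3 went from -0.65 to -0.80 and Rims2 to Rims3 from -0.38 to -0.54. Whether the trend was technical was not tested.

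**Figure D4:**
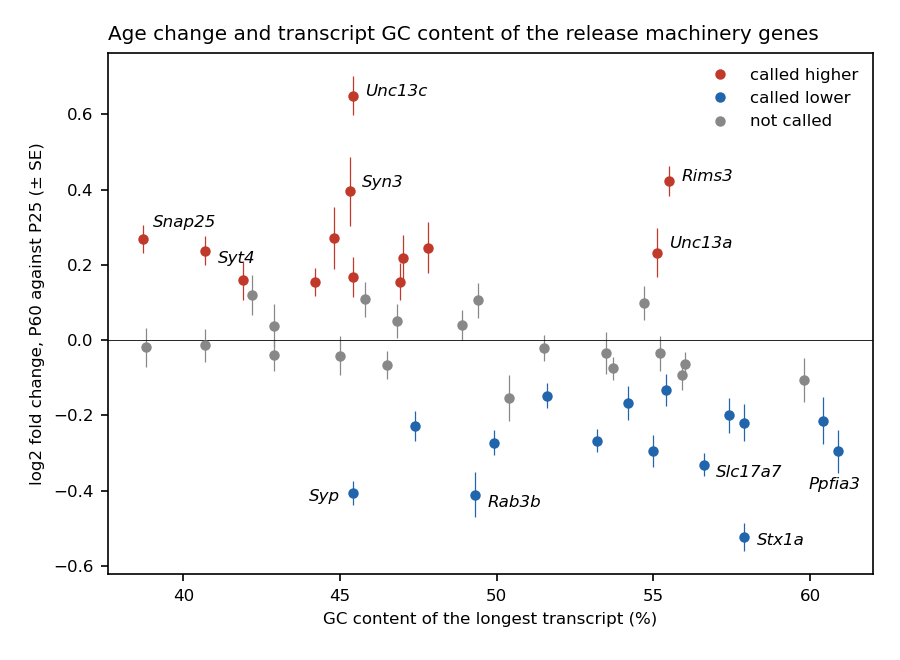
Log2 fold change between P60 and P25 over both genotypes (vertical, with SE) against GC content of the longest transcript in percent (horizontal) for the 48 genes. Of the called genes above 0, all but Rims3 (55.5%) and Unc13a (55.1%) lie to the left of the middle of the axis, and most called genes below 0 lie to the right, with Syp (45.4%) farthest left.

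The comparison of KO with WT mice asked whether the release machinery differs when Shank3 is disrupted. At neither age was any of the 48 genes called, and none had an unadjusted p under 0.05 in limma (all genes, 0.00571% called and 1.36% at unadjusted p under 0.05 at P25; 0.00568% and 2.5% at P60). Log2 fold changes lay between -0.12 and 0.11 at P25 and between -0.09 and 0.09 at P60, and all 95% intervals lay within -0.36 to 0.30 at P25 and -0.34 to 0.22 at P60. The KO and WT groups overlapped for all 48 genes at P25 (all genes, 4.76% did not overlap) and for 47 at P60 (all genes, 7.79%). The exception, singled out after its values were seen, was Amph, whose product bends membrane at endocytic pits: it was at 6206, 6440 and 6507 normalized counts in P60-KO and at 6678, 6559 and 6538 in P60-WT, a log2 difference of -0.05 ± 0.04 (SE). These comparisons use the same libraries as the age comparisons.

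The genes with the smallest p at P25 were Ppfia2 and Synj1 on the higher side and Vamp1 and Unc13c on the lower. Ppfia2 was at 2709, 2556 and 2971 in P25-WT, 2941, 2974 and 2957 in P25-KO, 2871, 2620 and 2853 in P60-WT and 2853, 2846 and 2881 in P60-KO. KO and WT libraries overlapped at P25, where the log2 difference was 0.11 ± 0.08 (SE, 95% interval -0.06 to 0.28). Synj1 was at 12104, 10372 and 12460 in P25-WT, 12447, 12963 and 12005 in P25-KO, 12758, 13496 and 13812 in P60-WT and 12705, 13494 and 14171 in P60-KO. The P25 difference was 0.10 ± 0.08 (SE, 95% interval -0.08 to 0.29), and P25-WT replicate 2 was the lowest library. For Vamp1 it was -0.12 ± 0.09 (SE, 95% interval -0.33 to 0.10), and for Unc13c -0.09 ± 0.08 (SE, 95% interval -0.28 to 0.09). Without P25-WT replicate 2 the differences were 0.06 for Ppfia2, 0.02 for Synj1, -0.18 for Vamp1 and -0.15 for Unc13c. With each single library left out in turn, Vamp1 ran from -0.20 to -0.05 and Unc13c from -0.15 to -0.04. Ppfia2 then ran from 0.06 to 0.17 and Synj1 from 0.02 to 0.15.

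At P60 the smallest p values were those of Sv2c and Vamp1 on the higher side and Syt1 and Syt7 on the lower. Sv2c was at 2400, 1885 and 2599 in P25-WT, 2379, 2376 and 2101 in P25-KO, 2581, 2754 and 2519 in P60-WT and 2718, 2780 and 2868 in P60-KO. The P60 difference between KO and WT was 0.09 ± 0.05 (SE, 95% interval -0.03 to 0.21). Syt1 was at 40618, 38488 and 42138 in P25-WT, 43022, 44507 and 38736 in P25-KO, 44184, 45717 and 46859 in P60-WT and 40231, 44941 and 44961 in P60-KO. One P60-KO library, replicate 1, was below all P60-WT libraries while the others lay among them, and the difference was -0.07 ± 0.05 (SE, 95% interval -0.19 to 0.04). Syt7 was at 11959, 10286 and 12531 in P25-WT, 11040, 11468 and 11352 in P25-KO, 12546, 12528 and 12254 in P60-WT and 11684, 12257 and 12118 in P60-KO. The difference was -0.05 ± 0.04 (SE, 95% interval -0.14 to 0.04), and for Vamp1 it was 0.07 ± 0.06 (SE, 95% interval -0.07 to 0.20). Without P60-KO replicate 1 the difference was -0.02 for Syt1 and -0.03 for Syt7, and without P60-WT replicate 2 it was 0.13 for both Sv2c and Vamp1. With each single library left out in turn, Sv2c ran from 0.06 to 0.13 and Vamp1 from 0.03 to 0.13. Syt1 then ran from -0.1 to -0.02 and Syt7 from -0.06 to -0.03. Vamp1 lay lower in KO at P25 and higher at P60, with an interaction of 0.18 on the log2 scale (95% interval -0.07 to 0.44). That was the smallest interaction p among the 48, and it did not pass the test.

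**Figure D5:**
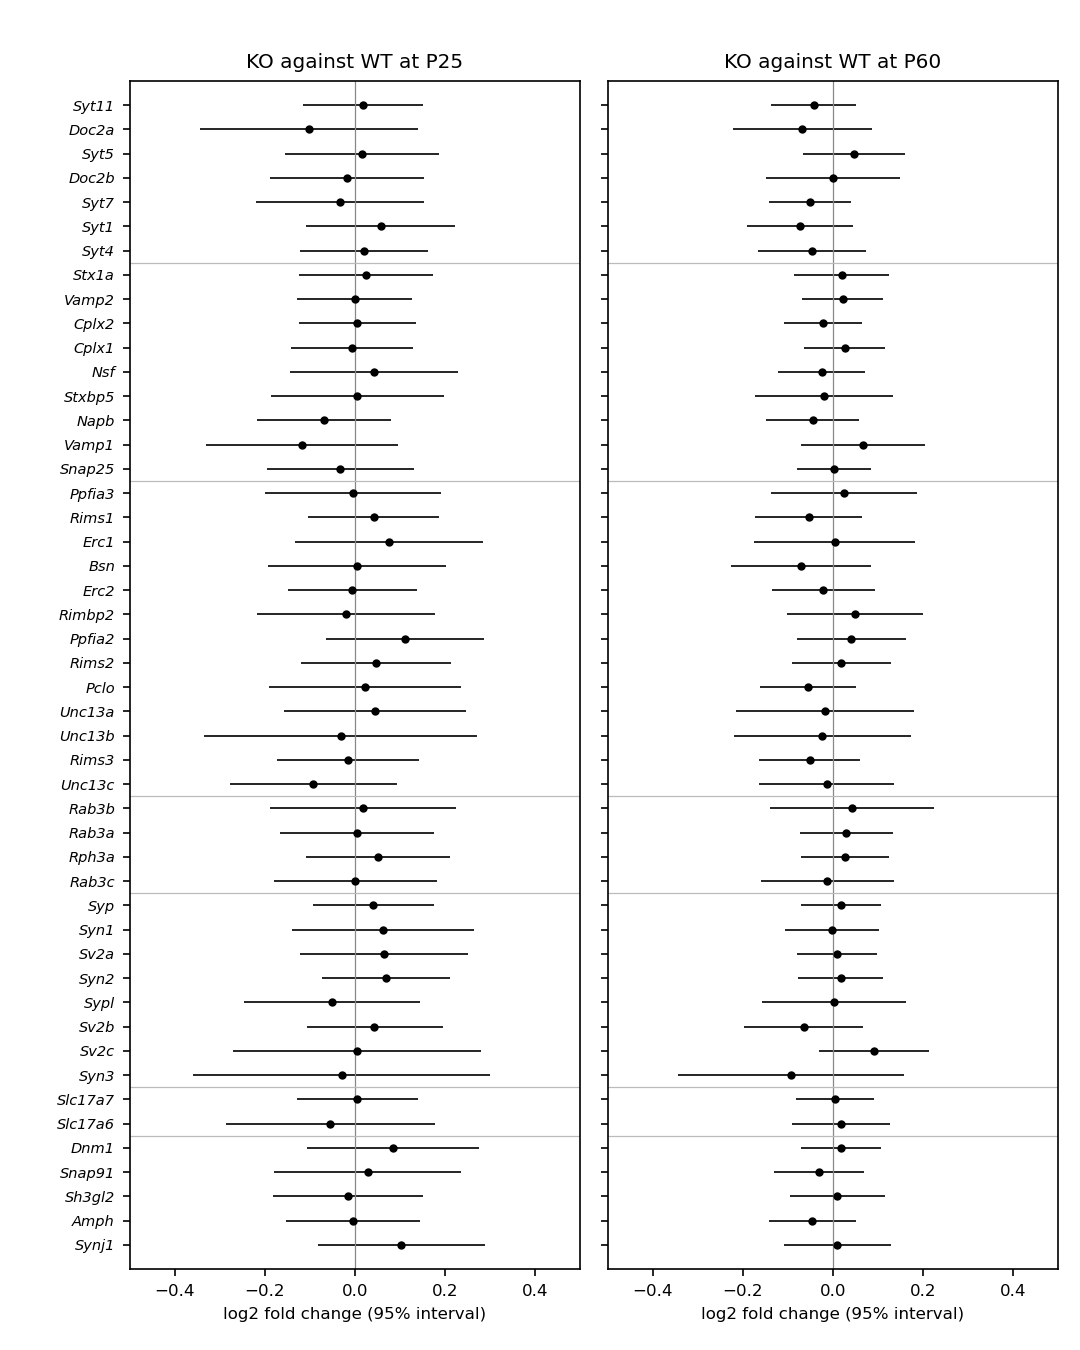
Log2 fold change of KO against WT with its 95% interval for the 48 genes at P25 (left) and P60 (right), in rows by role. Every interval includes 0, and all estimates lie between -0.12 and 0.11.

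Other genes of the vesicle cycle, a list of 90 from general knowledge of which 88 were in the table, were compared between the ages in the same fit. Over both genotypes 20 were higher at P60 and 31 were lower (58.0% called, against 37.6% of all genes), with a median log2 fold change of -0.03. With every library set to the same total, 27 were higher and 26 lower. By p-value the first of the higher genes were Stxbp6 (amisyn), Stxbp5l (tomosyn-2), Itsn2 (an endocytic scaffold) and Cacnb4 (a calcium channel subunit), at 0.30 ± 0.04 (SE, adjusted p = 0.000125), 0.55 ± 0.09 (SE, adjusted p = 0.000282), 0.32 ± 0.05 (SE, adjusted p = 0.000378), and 0.31 ± 0.06 (SE, adjusted p = 0.000777). The first of the lower genes were Syngr1 (synaptogyrin), Atp6v0c (the membrane ring of the vesicular proton pump), Ap2a2 (a clathrin adaptor) and Tmem163 (a vesicular zinc transporter), at -0.33 ± 0.03 (SE, adjusted p = 4.11e-06), -0.43 ± 0.05 (SE, adjusted p = 1.1e-05), -0.33 ± 0.04 (SE, adjusted p = 1.56e-05), and -0.83 ± 0.09 (SE, adjusted p = 1.65e-05). Syngr1, a relative of synaptophysin, was at 20934, 20817 and 20808 in P25-WT, 20693, 21039 and 20870 in P25-KO, 16479, 16900 and 16653 in P60-WT and 15985, 17324 and 16627 in P60-KO. Tmem163 was at 1291, 1309 and 1136 in P25-WT, 1255, 1180 and 1247 in P25-KO, 855, 631 and 591 in P60-WT and 845, 664 and 618 in P60-KO. Neither gene's ages overlapped. None of the 88 was called between KO and WT at either age in limma, and at an unadjusted p under 0.05 there were 0 at P25 and 1 at P60.

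Markers of several cell types were also lower at P60. All 8 oligodendrocyte markers were called lower, with a summed level of 400102 to 517899 normalized counts in P25 libraries and 194783 to 222470 in P60 libraries. Of 7 markers of immature neurons 6 were lower and 1 was higher (sums 25432 to 27440 and 18834 to 20728). The higher one was Dcx, at 953 to 1284 in P25 libraries and 1219 to 1576 in P60 libraries. Tubb3 made up the largest part of the sums of this list in every library. Of 8 markers of glutamatergic neurons of cortex and hippocampus, whose terminals use Slc17a7, 5 were lower and 1 was higher (sums 119428 to 126964 and 104575 to 110033). Of 7 GABA neuron markers 2 were higher and 3 lower (sums 44166 to 46315 and 41814 to 45062), and 5 of 6 astrocyte markers were lower (sums 108713 to 122440 and 90032 to 100847). Of the remaining lists, 4 of 5 markers of oligodendrocyte precursors, 3 of 3 of blood and 2 of 6 of microglia were lower, thalamus had 1 higher and 3 lower of 7, striatal projection neurons 1 and 1 of 7, choroid plexus 2 higher of 4 and endothelium 1 higher of 4. Over both genotypes none of the 5 cerebellum, 4 olfactory bulb or 2 hindbrain markers was called, although Slc6a5, of the hindbrain, was called higher within KO. No marker of these lists was called between KO and WT. The part of these changes in the age differences of the release machinery was not tested.

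Levels can be set side by side between genes only per length. In normalized counts per kilobase of merged exons over all 12 libraries, Snap25 was highest (9288), followed by Cplx1 (8657), Dnm1 (7671), Rab3a (7592), Vamp2 (7128) and Syp (7090). The lowest were Syn3 (33.6), Unc13b (88.9), Sypl (134), Erc1 (138) and Stxbp5 (225). Per kilobase of the longest transcript instead, Syp came first (12996), then Snap25 (12925) and Vamp2 (12313), so the order at the top depends on the length used, while Syn3 and Unc13b stayed last. Within families, Syt1 stood at 5141 and Syt7 at 1581 per kilobase of merged exons, Unc13a at 1250, Unc13c at 253 and Unc13b at 88.9, and Slc17a7 at 6391 and Slc17a6 at 515.

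The spread between replicates was not compared with that of other genes. The median coefficient of variation over the 48 was 3.96% in P25-KO, 7.18% in P25-WT, 3.56% in P60-KO and 3.50% in P60-WT. The highest values were 13.8%, 16.8%, 14.9% and 10.7% in the same order.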

How the data were processed

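RNA was sequenced from forebrain of 12 mice, 3 in each combination of genotype and age. According to the methods, the authors estimated transcript abundance with Salmon, with correction for GC bias, summed it to genes with tximport, and scaled it with DESeq2. The submitters' processing notes give Salmon 1.1.0 and DESeq2 1.26.0, and the methods name another DESeq2 version. The deposited values are these normalized counts, a signal per gene: they hold no raw reads, the depth of each library is unknown, and models for counts were not used. The columns of the table sum to between 30568259 and 32348554.

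Each value plus a pseudocount of 1 was taken to log2, genes whose mean in the fitted libraries was under 10 were dropped, and limma (3.58.1 in R 4.3.3) was fitted across all of them, with the prior variance following mean expression and Benjamini-Hochberg adjustment over all genes tested (threshold 0.05). Fits were made for P60 against P25 over all libraries with genotype as a covariate, for the ages within each genotype, for KO against WT at each age, and for the interaction. Paralog ratios were compared by exact permutation of age within genotype. The fitting code was tested on simulated data. Gene positions and lengths came from the GENCODE annotation on GRCm38, which matched 19252 of 19268 identifiers. Values in every library were given for up to 6 members per direction with the smallest p between ages, up to 2 per direction between genotypes at each age, and the members of the 4 ratios that moved most. Of the other vesicle cycle genes, up to 4 per direction were named. A planned list of genes with a course like that of Syt1 is not reported here. The 48 genes, the marker lists and the list of other vesicle cycle genes were chosen with earlier results of these data known. Alternatives were other pseudocounts (0.5 and 8), no minimum mean or one of 50, 2 other scalings, no variance trend, removal of the trend on length and GC content, a replicate block, 1 fit for all libraries, and leaving out libraries.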

Additional observations from a re-analysis of the deposited data

How the results depend on the processing

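Over both genotypes the count of 28 genes ran from 23 to 30 under the alternative scalings, filters, pseudocounts and the length and GC adjustment (all genes, 33.5% to 43.4% called), and from 24 to 32 with 1 library left out (all genes, 31.8% to 38.3%). The count within one genotype depended more on the model: without the variance trend it was 1 in WT and 8 in KO, in place of 12 and 20, while the share of all genes called went from 8.65% to 1.09% and from 20.7% to 9.8%. With 1 library left out it ran from 2 to 16 in WT and from 16 to 20 in KO, the WT extremes being those without P60-WT replicate 1 or 3 (2) and without P25-WT replicate 2 (16), which is a fit on fewer mice. For the other vesicle cycle genes, the 18 called in WT became 1 without the variance trend and 37 with all 12 libraries in one fit (all genes, 19.6%), and ran from 0 to 32 with 1 library left out (all genes, 0.693% to 13.7%), while the 36 called in KO became 16 without the trend and ran from 23 (without P60-KO replicate 1) to 30 (all genes, 11.9% to 18.4%). The ratio of Rims1 to Rims3 was -0.80 and that of Syn1 to Syn3 -0.31 on the log2 scale with the length and GC trend removed, an alternative chosen after seeing the data, as was leaving out P60-WT replicate 2 and P60-KO replicate 1 together. With 1 library left out, the ratios ran from -0.67 to -0.63 (Rims1 to Rims3), -0.66 to -0.55 (Syn1 to Syn3), -0.63 to -0.49 (Rab3b to Rab3c) and -0.59 to -0.49 (Syn2 to Syn3). Apart from what these constructions state, the cause was not tested. None of the results under these alternatives changed sign while called. Of the 12 genes with the smallest p by age, 6 in each direction, Snap25 and Napb lost their call over both genotypes with the length and GC trend removed, and no other did under these alternatives, while within WT and KO 48 and 20 values under an alternative were no longer called. No gene of the 48 was called between KO and WT under any of them.

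Same-numbered libraries did not deviate together in every pair (correlations from -0.0719 to 0.166), so the numbers were not taken as pairs. Between KO and WT at P60, though, all 3 correlations were positive (0.0596, 0.166 and 0.129). With the replicate block, 12 of the 48 were called in WT (all genes, 10.2%), 15 in KO (14.1%), 28 over both genotypes (38.3%) and 0 between KO and WT. With 3 mice in a group and unknown depth, differences of a size within the intervals given for KO against WT may have gone undetected.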
